A study of Mus musculus with 6 samples.

Results

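The genes described here are 9 genes that mark interstitial macrophages and monocytes, measured by bulk RNA-sequencing of whole mouse lungs. They were taken by symbol from the deposited count table, and all 9 were found among its 49568 gene symbols. They are Adgre1, Cd68, Folr2, Cx3cr1, Ccr2, Ly6c2, Cd14, Plac8 and Nr4a1. Lungs came from 3 TNF-Tg mice, which carry a human TNF transgene, and from 3 WT littermates without it. All mice were female, on a C57BL/6 background and 4 months old, and each lung gave a single library. The transgene is a single copy of human TNF-α that every cell of the mouse inherits, and the promoter that drives it is not given in the sources used here. TNF-Tg mice are used as a model of inflammatory-erosive arthritis with pulmonary vascular disease, and the comparison asks how gene expression in the lung differed between the genotypes.

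Interstitial macrophages live in the connective tissue around the airways and vessels of the lung and present the pan-macrophage proteins F4/80 and CD68. They are distinct from alveolar macrophages, which occupy the air spaces. Monocytes are their circulating precursors. Classical monocytes carry Ly6C and the chemokine receptor CCR2, which lets them leave the bone marrow toward CCL2, while patrolling monocytes have little Ly6C, carry much CX3CR1 and depend on the nuclear receptor NR4A1. No gene of the set is confined to these cells: alveolar macrophages, eosinophils, T cells and endothelium express some of them. In whole tissue, a difference in the number of cells of a type cannot be told apart from a difference in RNA per cell.

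The total counts per lung were 25396923 to 30049463 in TNF-Tg and 31400978 to 32529408 in WT lungs, and 3 counts, taken as the smallest detected level, stood at 0.0922 to 0.118 CPM (counts scaled to a common library total). This floor covers counting error only. Mouse Tnf was higher in every TNF-Tg lung (140, 220 and 382 normalized counts) than in the WT lungs (15.3, 13.4 and 31.1). The human transgene itself was not measured here, and whether its reads enter the mouse Tnf count was not tested. In TNF-Tg replicate 1 the gene Gm42418 took 5.22% of the counts, against 0.0774% to 0.274% in the other lungs. In WT replicate 1 the squamous keratins Krt4 and Krt13 had 56570 and 45433 counts, against at most 8 elsewhere. Of 8 genes of lung identity none was higher and 6 were lower in TNF-Tg lungs (median log2 fold change -1.14). Among these, Scgb1a1 of club cells fell by 1.77 on the log2 scale and Hopx of alveolar type 1 cells by 1.60.

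The close relative that bears most on a count of the set is Ly6c1, the neighbour of Ly6c2. Both encode GPI-anchored Ly6C proteins, Ly6c2 in monocytes and Ly6c1 mainly in endothelium. In mm10 (GENCODE M21), Ly6c2 lies at chr15:75108158-75111970 and Ly6c1 at chr15:75044018-75048830, both on the minus strand. Their coding sequences have 393 bases each, with 384 identical (97.7%) and 9 different. The first 100 coding bases are shown because 6 of the 9 differences lie there, in capitals. A 100-base read can be told apart by sequence only where it covers such a difference.
Ly6c2: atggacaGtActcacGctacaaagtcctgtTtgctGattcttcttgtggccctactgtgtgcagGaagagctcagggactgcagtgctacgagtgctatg
Ly6c1: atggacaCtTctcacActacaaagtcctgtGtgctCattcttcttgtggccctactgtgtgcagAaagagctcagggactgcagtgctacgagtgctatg
The longest stretch without a difference was 188 bases, so some reads cannot be placed by sequence. Over the exons, 5.81% of all 100-base windows of Ly6c2 also occur in Ly6c1, and 14.9% of those of its protein-coding transcripts. The study's methods name uniquely mapped transcripts for its differential expression, and the setting of the counting itself for such reads is not given in the sources used here. For Ccr2 the shared windows were 0.79%, and for Adgre1, Cd68, Cx3cr1, Cd14, Plac8 and Nr4a1 they were 0. Of the windows of Folr2, 42.2% also occur in Gm10602, on the opposite strand. The kit marks strand, but whether the counting used it is not given in the sources used here.

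The promoters of both Ly6C genes are shown because the genes differed in opposite directions in the same lungs. RefSeq windows (GRCm38.p6, 250 bases before to 50 after a start) were present for 7 of the 9 genes. The windows were searched on both strands for GAGGAAGT, a core bound by PU.1, the master regulator of myeloid cells, and its copies are in capitals. The windows are chr15:75111922-75112221 for Ly6c2 and chr15:75048788-75049087 for Ly6c1, both written along the minus strand.
Ly6c2: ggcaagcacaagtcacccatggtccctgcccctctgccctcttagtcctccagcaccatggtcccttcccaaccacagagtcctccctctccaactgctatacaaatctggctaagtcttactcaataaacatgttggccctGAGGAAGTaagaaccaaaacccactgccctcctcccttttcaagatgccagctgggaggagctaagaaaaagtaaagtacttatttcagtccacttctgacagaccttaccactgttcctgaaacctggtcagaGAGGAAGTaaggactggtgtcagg
Ly6c1: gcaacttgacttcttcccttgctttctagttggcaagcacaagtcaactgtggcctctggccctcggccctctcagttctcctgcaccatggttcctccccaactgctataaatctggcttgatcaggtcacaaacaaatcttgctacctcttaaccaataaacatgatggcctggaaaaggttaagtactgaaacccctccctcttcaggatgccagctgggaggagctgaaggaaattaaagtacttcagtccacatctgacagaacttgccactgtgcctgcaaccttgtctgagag
The Ly6c2 window held 2 copies, which 0.061% of 32851 windows matched or exceeded, and 3.20% of the windows held any. The Ly6c1 window held 0 and ends inside a further copy, which is complete in the window of its other annotated start. A TATAAA was found in this Ly6c1 window and in no window of the 7 genes (13.6% of all windows had it). No other promoter of the 7 held GAGGAAGT.

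Nr4a1 is an immediate-early gene, whose transcription rises within minutes of a stimulus through cAMP response elements (CRE). Its window, chr15:101266596-101266895 on the plus strand, is shown with each CRE half-site in capitals (TGACG, here read as CGTCA from the other strand).
Nr4a1: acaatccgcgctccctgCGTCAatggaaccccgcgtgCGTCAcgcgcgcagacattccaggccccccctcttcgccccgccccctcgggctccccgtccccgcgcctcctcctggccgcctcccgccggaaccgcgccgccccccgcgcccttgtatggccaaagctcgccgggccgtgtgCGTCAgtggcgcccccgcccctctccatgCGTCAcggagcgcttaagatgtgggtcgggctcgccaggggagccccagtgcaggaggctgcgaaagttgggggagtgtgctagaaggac
It held 4 half-sites, a number that 0.231% of the windows reached, while 20.8% held any. The full element TGACGTCA was not among its letters (1.79% of windows had it). The AP-1 letters TGACTCA occurred at 2 places in the Cd68 window, as in 0.222% of windows, and at 1 place in a window of Folr2 (5.20% held any). These matches describe letters and do not show binding.

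Across the set, expression was higher in TNF-Tg lungs. All 9 genes passed the filter on low counts. By the quasi-likelihood test of edgeR, adjusted after Benjamini and Hochberg over 19199 tested genes, 8 of the 9 rose and none fell at an adjusted p of 0.05, where 24.0% of all tested genes were called higher and 47.4% were called in either direction. Of the 9, 7 rose with a log2 fold change of at least 1 (10.3% of all genes), and the same 7 had every TNF-Tg lung above every WT lung (30.5% of all genes). Ly6c2, at 1.03, was under 1 without TNF-Tg replicate 1 (0.84), TNF-Tg replicate 2 (0.96) or WT replicate 1 (0.99). With scaling by total counts only it was at 0.98, and in the other alternative analyses at 1.00 to 1.23. The median log2 fold change of all 9 was 2.06, against 0.035 over all tested genes. Nr4a1 did not pass the test. A normalized count is the count rescaled to the mean library size after TMM normalization.

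**Figure D1:**
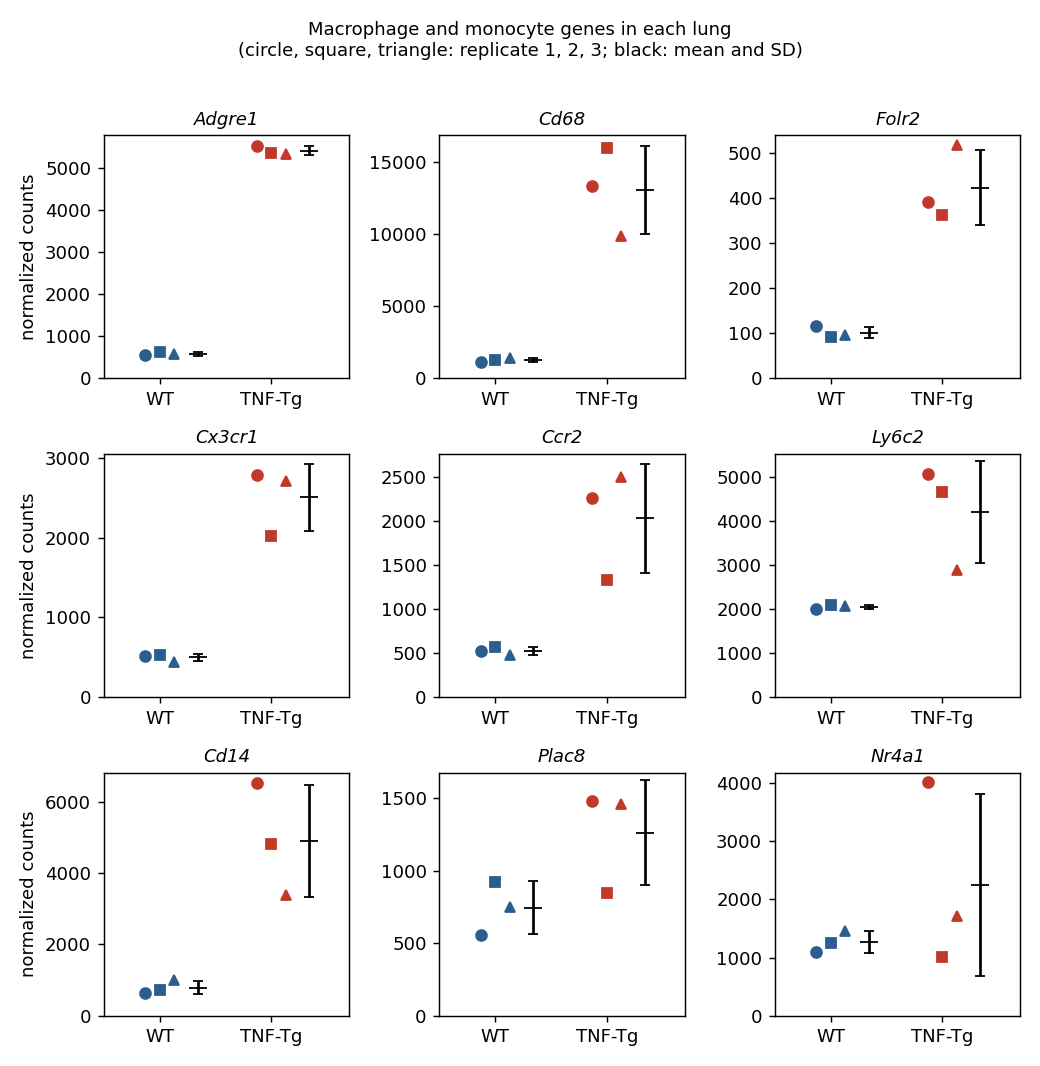
Normalized counts of the 9 genes in each lung (vertical axes from 0, WT in blue, TNF-Tg in red), with the mean and SD of 3 lungs in black. In 7 panels every TNF-Tg lung lies above every WT lung, whereas in the Plac8 and Nr4a1 panels the groups overlap.

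Among the 9 genes, Adgre1 and Cd68 had the largest fold changes. Adgre1 (ENSMUSG00000004730.15, chr17:57358691-57483527, plus strand), which encodes the adhesion receptor F4/80, had 5529, 5362 and 5347 normalized counts in TNF-Tg replicates 1, 2 and 3, and 551, 638 and 581 in the WT lungs. The groups were far apart and the TNF-Tg lungs nearly level, with a coefficient of variation of 1.86%, the smallest of the set. The means were 5412 ± 101 (SD, n = 3) and 590 ± 44.2, a 9.17-fold rise (log2 fold change 3.20, SE 0.10, edgeR's adjusted p = 2.45e-06). By its p-value it ranked 6 among all genes tested.

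Cd68 (ENSMUSG00000018774.13, chr11:69664213-69666153, minus strand) encodes a lysosomal glycoprotein used as a general macrophage stain. It had 13305, 15952 and 9851 normalized counts in the TNF-Tg lungs and 1138, 1295 and 1451 in the WT lungs. TNF-Tg replicate 3 was the lowest of its group and still far above all WT lungs. Cd68 rose 10.1-fold (log2 fold change 3.33, SE 0.20, edgeR's adjusted p = 1.29e-05), and 2.17% of tested genes had a larger log2 fold change.

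Folr2 (ENSMUSG00000032725.10, chr7:101839988-101857194, minus strand) encodes folate receptor beta, a marker of resident perivascular macrophages that often carry LYVE1. Its normalized counts were 391.6, 362 and 518 in TNF-Tg and 117, 93.0 and 96.0 in WT lungs, with no overlap. The rise was 4.16-fold (log2 fold change 2.06, SE 0.19, edgeR's adjusted p = 8.81e-05). Its antisense neighbour Gm10602 had 50.1, 101 and 101 against 44.9, 43.1 and 54.2 normalized counts, which overlap, with an adjusted p of 0.0528. Lyve1 itself fell, from 5726, 4294 and 3453 normalized counts in WT to 604, 596 and 414 in TNF-Tg lungs (log2 fold change -3.06, SE 0.22, edgeR's adjusted p = 3.03e-05). Lyve1 is also a gene of lymphatic endothelium, and which cells the fall concerns was not tested.

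The chemokine receptors of both monocyte classes rose together. Cx3cr1 (ENSMUSG00000052336.7, chr9:119901616-120069879, minus strand), the receptor for fractalkine, had 2787, 2023 and 2712 normalized counts in TNF-Tg and 513, 532 and 446 in WT lungs. All TNF-Tg lungs were above all WT lungs, with replicate 2 the lowest. The rise was 5.04-fold (log2 fold change 2.33, SE 0.15, edgeR's adjusted p = 1.54e-05).

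Ccr2 (ENSMUSG00000049103.14, chr9:124101950-124113557, plus strand), which guides classical monocytes, had 2271, 1327 and 2505 normalized counts in TNF-Tg and 529, 574 and 484 in WT lungs. TNF-Tg replicate 2 was again the lowest of its group and did not reach the WT range. Ccr2 rose 3.84-fold (log2 fold change 1.94, SE 0.22, edgeR's adjusted p = 0.000271).

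Genes for the ligands of these receptors were examined next. Of 10 ligands, growth factors and partners, 7 rose and 3 were not called (median log2 fold change 1.41). Ccl2, a ligand of CCR2, rose the most of the 10: it had 1429, 722 and 1982 normalized counts in TNF-Tg and 22.9, 7.67 and 20.4 in WT lungs (80.2-fold, log2 fold change 6.32, SE 0.49, edgeR's adjusted p = 3.99e-05). As with Ccr2, TNF-Tg replicate 2 had the lowest Ccl2 of its group. The other CCR2 ligands Ccl7 and Ccl12 rose 23.3-fold and 15.6-fold. Cx3cl1, the ligand of CX3CR1, had 1965, 1826 and 1752 normalized counts in TNF-Tg against 2154, 2154 and 2208 in WT lungs. These groups do not overlap, with TNF-Tg lower, but the gene did not pass the test (0.851-fold, edgeR's adjusted p = 0.05, just over the threshold). It was called lower by DESeq2 and by edgeR without TNF-Tg replicate 1. Csf1 and Il34, the ligands of the macrophage growth factor receptor CSF1R, rose 2.54-fold and 2.93-fold. Csf2, which encodes GM-CSF, was at 45.6 ± 13.7 normalized counts in TNF-Tg and 44.7 ± 11.9 in WT lungs and was not called.

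Cd14 (ENSMUSG00000051439.7, chr18:36725067-36726798, minus strand) encodes the co-receptor that hands lipopolysaccharide to TLR4. It had 6525, 4806 and 3394 normalized counts in TNF-Tg and 632, 724 and 995 in WT lungs. The lungs within each genotype were spread, 1.92-fold between the highest and lowest TNF-Tg lung, but the groups stayed apart. Cd14 rose 6.26-fold (log2 fold change 2.65, SE 0.26, edgeR's adjusted p = 0.00013). Its partners rose by less, Tlr4 1.66-fold and Ly96, which encodes MD-2, 2.79-fold. Lbp, whose product delivers lipopolysaccharide to CD14, was at 0.869-fold and did not pass the test (edgeR's adjusted p = 0.116).

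Ly6c2 (ENSMUSG00000022584.14) rose by less than the receptors. It had 5062, 4665 and 2898 normalized counts in TNF-Tg and 2008, 2084 and 2071 in WT lungs. The WT lungs were nearly level (coefficient of variation 1.98%), and TNF-Tg replicate 3 was the closest to them without overlap. The means were 4208 ± 1152 and 2054 ± 40.7 (SD, n = 3), a 2.05-fold rise (log2 fold change 1.03, SE 0.19, edgeR's adjusted p = 0.00289).

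Ly6c1, with the neighbouring near-identical sequence, went the other way. It had 5115, 5964 and 4389 normalized counts in TNF-Tg and 7197, 6761 and 6516 in WT lungs, a 0.755-fold level (log2 fold change -0.40, SE 0.13, edgeR's adjusted p = 0.0319). Its call was lost when TNF-Tg replicate 1 or 3, or WT replicate 1 or 2, was left out (adjusted p 0.0643 to 0.0766), with the direction kept. Within each lung, the log2 CPM of Ly6c2 minus that of Ly6c1 was -0.01, -0.35 and -0.60 in TNF-Tg and -1.84, -1.70 and -1.65 in WT lungs. The difference between genotypes was 1.41 with no overlap, at p = 0.1 in an exact two-sided permutation test, which is the smallest p that 3 lungs against 3 can give. Of the 8 endothelial markers, Ly6c1 among them, all fell, and the median log2 fold change was -1.16. How far shared reads or endothelial Ly6c1 enter the Ly6c2 count was not tested.

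Plac8 (ENSMUSG00000029322.12, chr5:100553725-100572245, minus strand) encodes a small cysteine-rich protein abundant in classical monocytes and granulocytes. It had 1483, 847 and 1461 normalized counts in TNF-Tg and 559, 923 and 752 in WT lungs. TNF-Tg replicate 2 lay within the WT range, so the groups overlap. It was called higher at 1.7-fold (log2 fold change 0.76, SE 0.25, edgeR's adjusted p = 0.0338). The call was lost without TNF-Tg replicate 1 (0.60, adjusted p = 0.129), TNF-Tg replicate 3 (0.63, 0.118), WT replicate 1 (0.57, 0.106) or WT replicate 3 (0.76, 0.075), the first value in each being the log2 fold change. WT replicate 1, the lowest for Plac8, is the lung with the keratin counts.

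Nr4a1 (ENSMUSG00000023034.7, chr15:101254269-101274795, plus strand) varied most between the TNF-Tg lungs. It had 4014, 1014 and 1719 normalized counts in TNF-Tg and 1087, 1248 and 1456 in WT lungs. TNF-Tg replicate 1 stood far above all other lungs and TNF-Tg replicate 2 was the lowest of the 6. The means were 2249 ± 1568 and 1263 ± 185 (SD, n = 3), and the gene did not pass the test (log2 fold change 0.83, SE 0.43, edgeR's adjusted p = 0.142). Without TNF-Tg replicate 1 the log2 fold change was 0.08 (adjusted p = 0.809), and without TNF-Tg replicate 2 it was 1.18 and passed (adjusted p = 0.0263).

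**Figure D2:**
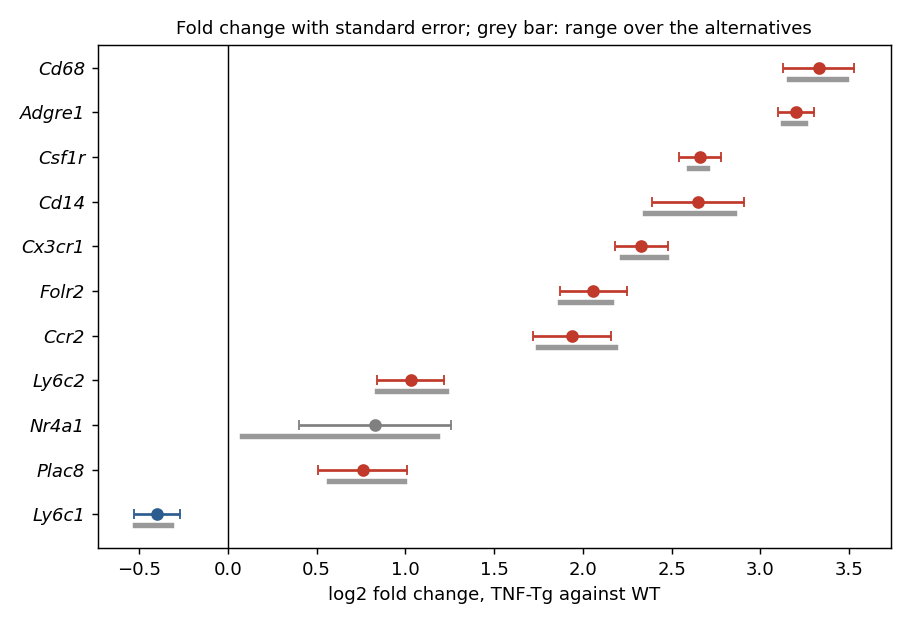
Log2 fold change of TNF-Tg against WT for the 9 genes, Csf1r and Ly6c1 (horizontal axis; points with standard error, red called higher, blue called lower, grey not called), with the range over 14 alternative analyses as a grey bar. Adgre1 and Cd68 lie above 3, Nr4a1 has the widest bar, from 0.08 to 1.18, and Ly6c1 alone lies below 0.

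Other immediate-early genes were set beside Nr4a1 lung by lung. Of 18 such genes, 4 rose, 3 fell and 11 were not called, and the median log2 fold change was 0.23. The share of rises was near the 24.0% of all tested genes called higher. Over all 19199 tested genes, 4486 were called lower. Among the TNF-Tg lungs, replicate 1 was the highest for 11 of the 18, replicate 2 for 4 and replicate 3 for 3, against 6, 1 and 2 of the 9 genes themselves. The same count over all tested genes was not made, so 11 of 18 cannot be set against a background. Relative to the WT mean, the log2 CPM of Nr4a1 was 1.68, -0.31 and 0.45 in TNF-Tg replicates 1, 2 and 3. Fos, a subunit of AP-1, was at 2.76, 0.22 and 0.71. For Zfp36, whose product destabilizes cytokine mRNAs, the values were 1.79, -0.10 and 0.04, and for the phosphatase gene Dusp1 they were 1.47, -0.77 and -1.03. In these 4 genes replicate 1 was the highest and exceeded all WT lungs, while Egr2, Egr3, Jun, Ier3, Atf3, Rhob and Gadd45b were highest in another TNF-Tg lung. Fos was not called (log2 fold change 1.59, SE 0.63, edgeR's adjusted p = 0.0681). Fos, Zfp36 and Dusp1 were named after their values were seen.

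Among the called genes of the list, Egr2 and Junb had the largest rises and Nr4a3 and Jun the largest falls. Egr2, a transcription factor of macrophages, rose by a log2 fold change of 2.77 (SE 0.17), with 2.81, 2.81 and 2.68 over the WT mean in the 3 lungs. Junb rose by 2.10 (SE 0.38). Jun fell by 1.17 on the log2 scale (SE 0.10) and Nr4a3, the relative of Nr4a1, fell by 1.85 (SE 0.34). The count of falls in this list rose from 3 to 6 without TNF-Tg replicate 1. That lung also had the high Gm42418 share, and the part of either in the Nr4a1 values was not tested.

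**Figure D3:**
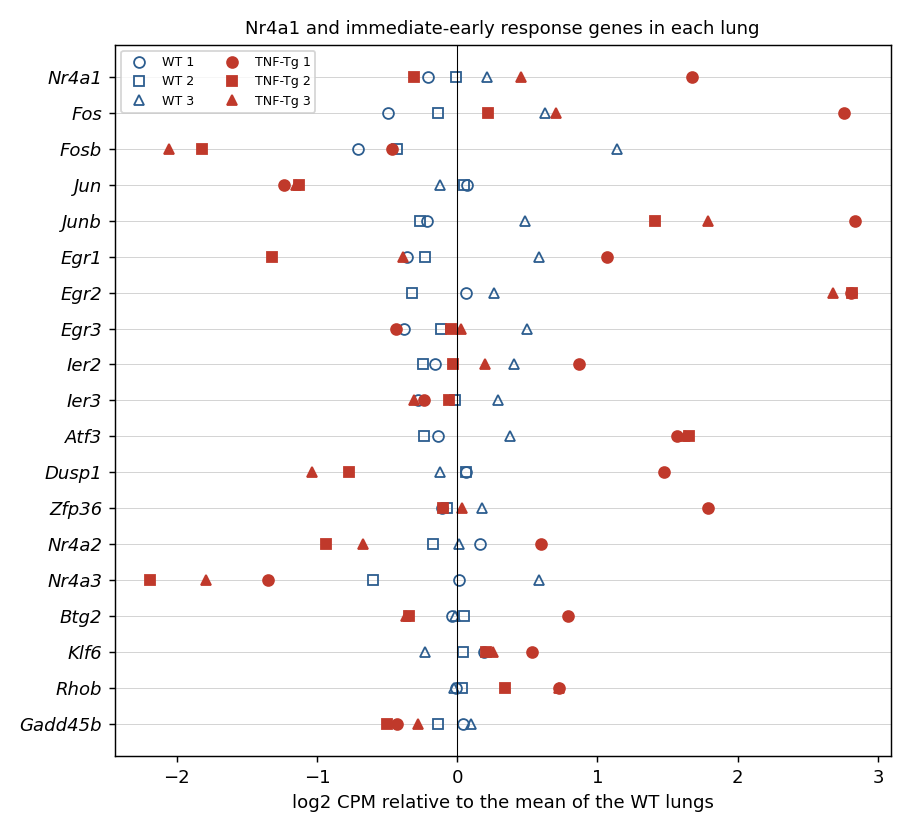
Log2 CPM of Nr4a1 and 18 immediate-early genes in each lung, relative to the WT mean (horizontal axis; WT open blue, TNF-Tg filled red; circle, square and triangle for replicates 1, 2 and 3). For Nr4a1, Fos, Zfp36 and Dusp1 the TNF-Tg circle lies far to the right of the other lungs, while for Egr2 the 3 TNF-Tg lungs lie together near 2.8.

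The TNF-Tg lungs did not rank the same way for all genes. Replicate 1 was the highest for 6 of the 9 (Adgre1, Cx3cr1, Ly6c2, Cd14, Plac8 and Nr4a1), replicate 3 for Folr2 and Ccr2, and replicate 2 for Cd68. Folr2 and Ccr2 had the order 3, 1, 2 from high to low, while Cx3cr1, Plac8 and Nr4a1 had 1, 3, 2. Adgre1, Ly6c2 and Cd14 had the order 1, 2, 3, although in Adgre1 the highest was only 1.03-fold above the lowest. In Nr4a1 that ratio was 3.96, in Cd14 1.92 and in Ccr2 1.89. With 3 lungs these orders are a description.

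**Figure D4:**
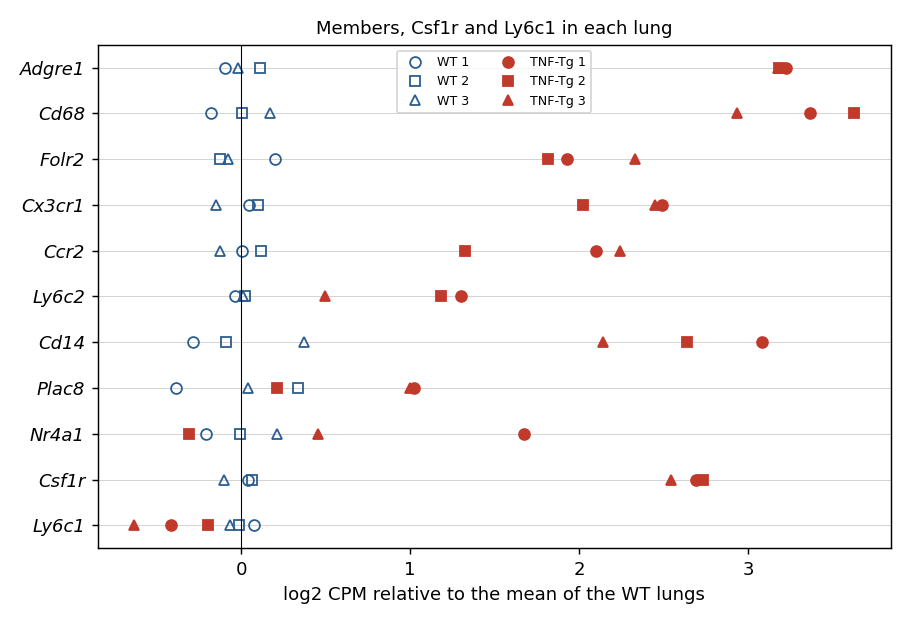
Log2 CPM of the 9 genes, Csf1r and Ly6c1 in each lung relative to the WT mean (horizontal axis; symbols as for the immediate-early genes). The Adgre1 symbols of TNF-Tg lungs lie together near 3.2, those of Cd14 run from 2.14 to 3.08, and the TNF-Tg square, replicate 2, is the lowest of its group for Folr2, Cx3cr1, Ccr2, Plac8 and Nr4a1.

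Within a lung, the genes changed by unequal amounts. Csf1r, the CSF1 receptor expressed by monocytes and macrophages, rose 6.30-fold (32670, 33590 and 29461 against 5200, 5281 and 4708 normalized counts) and served as the reference. Of its 100-base windows, 13.5% also occur in Hmgxb3, on the opposite strand, and the strand setting of the counting bears on Csf1r as on Folr2. In 16 differences of log2 CPM within lungs, 11 had no overlap between genotypes. Each of the 11 was at p = 0.1 by the exact two-sided permutation test, or 0.145 after Benjamini-Hochberg adjustment over the 16. No p under 0.1 was possible, so none of the 11 passed a threshold of 0.05. How many pairs among all genes would show no overlap was not counted. Relative to Csf1r, Adgre1 and Cd68 were higher in TNF-Tg than in WT lungs, by 0.54 and 0.65 on the log2 scale. Csf1r itself rose by 2.66 on this scale, so a gene that rose by less, or not at all, has a negative difference. The differences were negative for Cx3cr1 (-0.34), Folr2 (-0.63), Ccr2 (-0.77), Ly6c2 (-1.66), Plac8 (-1.91) and Nr4a1 (-2.05). Without TNF-Tg replicate 2, the lowest of its group for both receptors, the difference was -0.15 for Cx3cr1 and -0.45 for Ccr2. Cd14 relative to Csf1r was -2.75 ± 0.40 in TNF-Tg and -2.71 ± 0.42 in WT lungs (SD, n = 3, exact permutation p = 0.8), and the sign of their difference turned without TNF-Tg replicate 3 (0.15) or WT replicate 3 (0.20).

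Among pairs of the set, Folr2 relative to Adgre1 was -3.81, -3.88 and -3.36 in TNF-Tg and -2.22, -2.75 and -2.57 in WT lungs, a difference of -1.17 without overlap. Cd68 relative to Adgre1 differed by 0.11 with overlap (exact permutation p = 0.7). Cx3cr1 relative to Ccr2 was 0.30, 0.61 and 0.11 in TNF-Tg and -0.04, -0.11 and -0.12 in WT lungs, 0.43 higher without overlap. Nr4a1 relative to Fos overlapped (difference -0.62, exact permutation p = 0.2), as did Cd14 relative to Adgre1 (-0.57, p = 0.3) and Plac8 relative to Ly6c2 (-0.25, p = 0.7). These overlapping differences depended on single lungs. Without TNF-Tg replicate 2, Cd68 relative to Adgre1 was -0.05 and Plac8 relative to Ly6c2 was 0.11, both with the sign turned. Left out in turn, the lungs gave -0.05 to 0.29 for Cd68 relative to Adgre1, -0.79 to -0.34 for Cd14 relative to Adgre1 (lowest without TNF-Tg replicate 1, highest without TNF-Tg replicate 3), -0.62 to 0.11 for Plac8 relative to Ly6c2 and -0.83 to -0.39 for Nr4a1 relative to Fos (highest without TNF-Tg replicate 1).

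To rank the 9 genes by level, values were taken per length, as RPKM (CPM on the TMM-scaled total, divided by the exon length in kilobases). Sums over gene lists were not divided by length. In WT lungs the order was Cd68 (34.1 ± 4.12 RPKM, SD, n = 3), Ly6c2 (24.8 ± 0.492), Plac8 (15.5 ± 3.78), Cd14 (15.0 ± 3.61), Nr4a1 (11.9 ± 1.74), Adgre1 (6.03 ± 0.451), Cx3cr1 (3.65 ± 0.331), Ccr2 (2.59 ± 0.220) and Folr2 (2.18 ± 0.275). The ranges of Plac8, Cd14 and Nr4a1 overlapped one another, as did those of Ccr2 and Folr2. In TNF-Tg lungs Cd68 (343 ± 80.5 RPKM) and Cd14 (93.8 ± 30.0) led, followed by Adgre1 (55.3 ± 1.03), Ly6c2 (50.8 ± 13.9), Plac8 (26.3 ± 7.51), Nr4a1 (21.2 ± 14.8), Cx3cr1 (18.4 ± 3.09), Ccr2 (9.96 ± 3.05) and Folr2 (9.07 ± 1.78). There the range of Nr4a1 overlapped those of Ly6c2, Plac8, Cx3cr1, Ccr2 and Folr2. The ranges of Adgre1 and Ly6c2, of Plac8 and Cx3cr1, and of Ccr2 and Folr2 overlapped as well. Adgre1 was at rank 6 in WT and at rank 3 in TNF-Tg lungs. The rank of Ly6c2 depends on its length, since a transcript with a retained intron brings its exons to 2740 bases, against 822 in its longest protein-coding transcript. With the longest protein-coding transcript, a choice made after the values were seen, Ly6c2 was at 82.7 RPKM in WT and 169 in TNF-Tg lungs, rank 1 and rank 2.

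Other genes of the same cell types were split. Of 17 further macrophage genes, 15 rose, 1 fell (Lyve1) and 1 was not called (Gas6, which was called lower without TNF-Tg replicate 1 and by DESeq2), with a median of 1.75 on the log2 scale against 0.035 over all genes. Ms4a7, a membrane gene of monocyte-derived macrophages, had 3212 ± 354 normalized counts in TNF-Tg and 92.9 ± 18.5 in WT lungs (log2 fold change 5.11, SE 0.18), and C1qc of the complement C1q complex rose by 4.29 (SE 0.21). The summed level of the 17 was 206191 to 233618 normalized counts in TNF-Tg and 50598 to 53680 in WT lungs.

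Of 11 genes of classical monocytes beside the set, 4 rose, 2 fell and 5 were not called, and the median log2 fold change was 0.12. The chemokine gene Ccl9 (log2 fold change 3.95, SE 0.22) and S100a4 (2.68, SE 0.32) rose most. Vcan, which encodes versican, fell by 1.48 on the log2 scale (SE 0.23). The count of falls was 1 without TNF-Tg replicate 1 or 2 or WT replicate 2 or 3. Of 12 genes of patrolling monocytes, 8 rose, 1 fell and 3 were not called, with a median of 1.18. Adgre4, which encodes the receptor EMR4, rose by 3.53 (SE 0.14) and the transcription factor gene Pou2f2 by 2.22 (SE 0.19). Ace fell by 1.81 on the log2 scale (SE 0.13). Ace is also an enzyme gene of lung endothelium and made up most of the summed level of this list, which was lower in TNF-Tg (34049 to 38845 normalized counts) than in WT lungs (72578 to 81050). The count of falls in this list was 2 without TNF-Tg replicate 3, WT replicate 2 or WT replicate 3, and 3 without WT replicate 1.

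**Figure D5:**
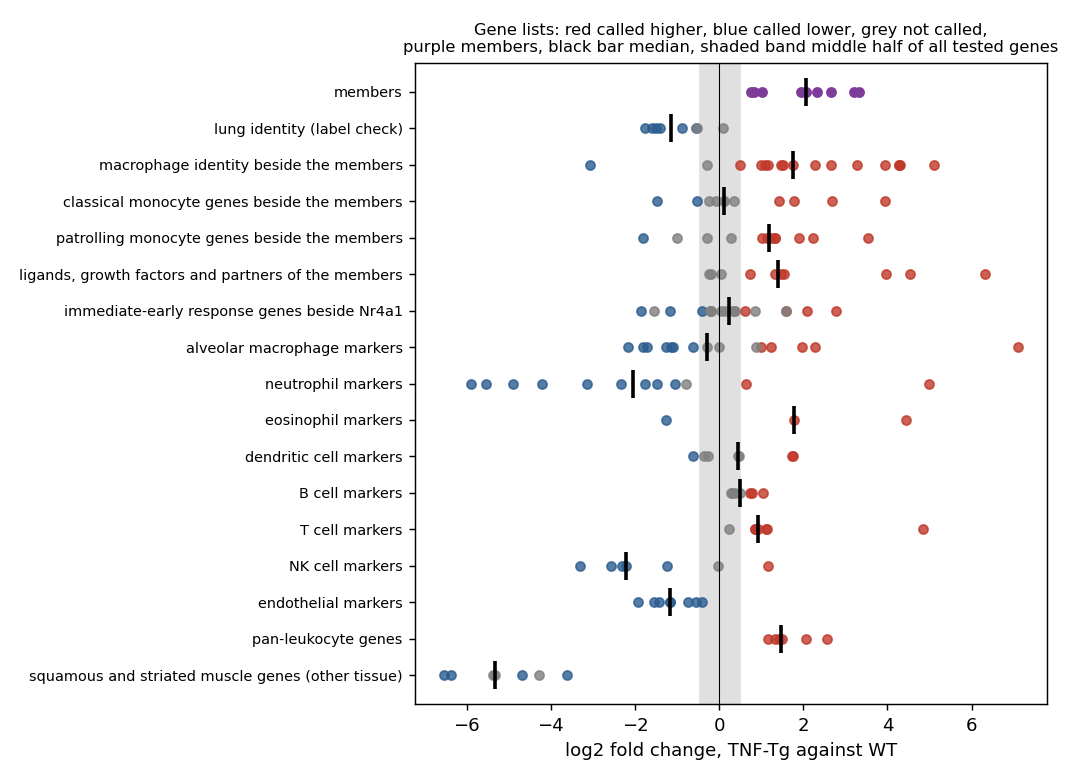
Log2 fold change of TNF-Tg against WT for each tested gene of the lists (horizontal axis; red called higher, blue called lower, grey not called, black bar median), with the 9 genes in purple at the top and the middle 50% of all tested genes shaded. Macrophage, patrolling monocyte and pan-leukocyte genes lie mostly to the right, and endothelial, NK cell and neutrophil genes mostly to the left.

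Markers of other cells moved in the same comparison, and their part in the values of the 9 genes was not tested. Of 6 pan-leukocyte genes all rose (median log2 fold change 1.47, with Cd52 at 2.57 and Cd53 at 2.07), and their summed level was 72371 to 84806 normalized counts in TNF-Tg and 25429 to 33031 in WT lungs. Of 15 alveolar macrophage markers 5 rose, 7 fell and 3 were not called. The scavenger receptor gene Marco rose by a log2 fold change of 7.10 and the integrin gene Itgax by 2.28, while Fabp1 fell by 2.17 on the log2 scale and Cidec by 1.82. Their summed level was 79061 to 126782 in TNF-Tg and 17376 to 21563 in WT lungs, and Marco alone, at 67751 ± 24369 against 494 ± 341 normalized counts, made up most of it in TNF-Tg lungs. Siglecf, which defines alveolar macrophages and eosinophils in the mouse, fell by 1.27 on the log2 scale. Of 3 eosinophil markers tested, Prg2 and Il5ra rose (4.44 and 1.78) and Siglecf fell, and the list sum was 580 to 1234 against 224 to 278. Prg2 alone, at 765 ± 335 against 34.8 ± 24.4 normalized counts, made up most of this sum in TNF-Tg lungs. Epx and Ccr3, also of this list, did not pass the filter on low counts.

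Neutrophil markers fell in 9 of 12 genes, led by the granule genes Ngp and Mpo (log2 fold changes -5.90 and -5.53), while Mmp9 (4.99) and Csf3r (0.64) rose. Mmp9 alone was at 16122 ± 2620 normalized counts in TNF-Tg lungs, so the list sum was higher there (16742 to 21138) than in WT lungs (6907 to 11755). The count of rises was 1 without TNF-Tg replicate 1 or 3 or WT replicate 1 or 2. Of 7 NK cell markers 5 fell, led by Gzma (-3.31) and Klre1 (-2.57), and Eomes rose by 1.16 (sum 458 to 479 against 1063 to 1550).

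Of 7 T cell markers 6 rose, with Cd4, which mouse macrophages can also express at low level, at 4.84 and Cd3g at 1.13, but 3 rose without TNF-Tg replicate 2, WT replicate 1 or WT replicate 2 (sum 10271 to 15041 against 1285 to 2399). Cd4 alone, at 10700 ± 2287 against 374 ± 158 normalized counts, made up most of this sum in TNF-Tg lungs. Of 7 B cell markers 3 rose, Cd79a (1.04) and Ms4a1 (0.79) among them (sum 8218 to 8343 against 3809 to 6652). Of 7 dendritic cell markers, Flt3 (1.75) and Cd209a (1.74) rose, Ccr7 fell (-0.63) and 4 were not called (sum 2686 to 3004 against 2166 to 2336), a share of rises near the 24.0% of all tested genes called higher. The fall of Ccr7 was lost without TNF-Tg replicate 2, WT replicate 2 or WT replicate 3. Besides Ly6c1, the endothelial gene Tek fell by 1.94 and Cldn5 fell by 1.54 on the log2 scale, and the endothelial sum was 52764 to 58615 against 99702 to 115532. Of 7 tested squamous and muscle genes 4 were called lower, with Krt5 at -6.54 and Myh4 at -6.38. DESeq2 called 0 of them (sum 413 to 1162 against 873 to 153858). The size of both falls came from WT replicate 1, with 2501 normalized counts of Krt5 and 3925 of Myh4. In the other WT lungs Krt5 had 27.8 and 53.3, still above the 3.78 to 13.2 of TNF-Tg lungs. Myh4 had at most 12.5 there, within the 6.20 to 26.4 of TNF-Tg lungs or near it, so its groups overlap. Without TNF-Tg replicate 1, 2 or 3 no gene of that list was called by edgeR, without WT replicate 1 there were 2 and without WT replicate 3 there were 7.

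The genes whose pattern over the 6 lungs was most like each of the 9 were found by the root mean square difference of log2 CPM relative to the WT mean, among 14999 tested genes whose mean log2 CPM was 1 or more. Nearest to Adgre1 were Nfkbie (0.044), B430306N03Rik (0.084) and Lacc1 (0.106). Those of Cd68 were Hvcn1 (0.094), Ms4a14 (0.128) and the cathepsin gene Ctss (0.129). Folr2 was followed by Cd80 (0.132), Ncapg2 (0.132) and Pilrb1 (0.150). For Cx3cr1 they were Clec4a3 (0.094), Samsn1 (0.129) and Cd300ld (0.138). Ccr2 was most like Treml4 (0.085), a gene of the patrolling monocyte list, and then C920009B18Rik (0.135).

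Ly6c2 was nearest to Tox (0.053), Gm7079 (0.091) and Gm7285 (0.095), and Plac8 to Rnd1 (0.076), the chemokine receptor gene Cxcr6 (0.124) and Wisp1 (0.184). Cd14 had more distant neighbours, March1 (0.152), Slc14a1 (0.199) and Gpr55 (0.202), and Nr4a1 the most distant, Zfp36 (0.201), Dusp5 (0.243) and Sik1 (0.322). Zfp36 and Dusp5 are immediate-early genes as well. Within the set, the closest pairs were Adgre1 with Cd68 (0.236), Folr2 with Ccr2 (0.251), Folr2 with Cx3cr1 (0.272) and Cx3cr1 with Ccr2 (0.337). These distances rest on the same 6 libraries and, for any called gene, mostly on the size of its fold change.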

How the data were processed

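Poly(A) RNA, purified from 200 ng of total RNA of each of 6 lungs, was sequenced in 100-base single-end reads. According to the submitters' processing notes the authors used Trimmomatic (0.36), STAR (2.5.2b) and featureCounts on GRCm38.p5, and deposited raw counts per gene symbol without normalization. The annotation and strand setting of the counting are not given in the sources used here. Counts were tested with edgeR (4.0.16, R 4.3.3) after filterByExpr and TMM, with genotype alone in the model, by its quasi-likelihood test at a Benjamini-Hochberg adjusted p of 0.05. Standard errors are the log2 fold change divided by the square root of F. Ratios within lungs used log2 CPM with a prior count of 2 and exact permutation. Alternatives were DESeq2 (1.42.0), limma-voom (3.58.1), other scalings and filters, a block for the replicate number, robust dispersion, a minimum log2 fold change of 1 and each lung left out. Total counts per lung were 25396923 to 32529408. Programs were tested on simulated data.

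The members and gene lists were chosen with earlier results of these data known. Named are the 9 members, Ly6c1 and Csf1r, per list the largest 2 rises and 2 falls among called genes, every ligand or partner, and the 3 genes most like each member. Krt4, Krt13, Gm42418, Gm10602, Hmgxb3, Gas6, Siglecf, Epx, Ccr3, Fos, Zfp36, Dusp1, Egr3, Ier3, Atf3, Rhob and Gadd45b were added after values were seen. Each library is a separate mouse, and the labels give no batch. Pairs of libraries within a group differed by far more than counting noise, so p-values rest on the spread between mice. Single values of some genes that these rules name are not reported here.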

Additional observations from a re-analysis of the deposited data

How the results depend on the processing

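Under the 14 alternatives the direction of the 9 members and of Ly6c1 was kept throughout. Of the ratios within lungs, 3 whose groups overlap changed sign with a lung left out (Cd68 to Adgre1, Plac8 to Ly6c2 and Cd14 to Csf1r). Plac8 and Nr4a1 changed side of the threshold. Left out in turn, single lungs gave Plac8 log2 fold changes of 0.57 to 0.99 and Nr4a1 0.08 to 1.18. With a replicate block Plac8 was at 0.75 (adjusted p = 0.0851) and not called. The replicate numbers mark different mice, and same-numbered lungs did not deviate together (correlations -0.149, -0.004 and -0.242 over genes). The block lowered the calls over all genes from 9096 to 7686, and 7347 to 9164 were called with a lung left out. Members called higher numbered 7 to 9 over the alternatives. DESeq2, limma-voom, other scalings and other filters changed no member's call. Leave-one-out log2 fold changes ran over 3.13 to 3.25 for Adgre1, 3.16 to 3.48 for Cd68, 1.87 to 2.16 for Folr2, 2.22 to 2.47 for Cx3cr1, 1.75 to 2.18 for Ccr2, 0.84 to 1.23 for Ly6c2 and 2.35 to 2.85 for Cd14. In the gene lists, DESeq2 called 2 falls in place of 1 among macrophage and among patrolling monocyte genes and 1 in place of 0 among ligands, and the replicate block called 0 in place of 1 among dendritic cell genes and 2 in place of 4 among squamous and muscle genes. The cause of the changes in Plac8 and Nr4a1 was not tested. With 3 lungs per genotype the permutation tests could not go below p = 0.1. Every member lay far above the floor of 3 counts, and the part of depth in the Plac8 and Nr4a1 calls was not tested.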
